A study of Sus scrofa with 4 samples.

Results

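The genes described here are the pig members of 7 families of solute carriers (SLC) that move amino acids and related small molecules across membranes, namely SLC1, SLC3, SLC6, SLC7, SLC36, SLC38 and SLC43. Members were chosen by name alone, and 56 of the 30282 genes of the feature tables matched. They were read in 4 single-cell RNA sequencing libraries. PPDO 1 and PPDO 2 were porcine pancreatic ductal organoids, which are epithelial cultures grown in a matrix from hand-picked ducts. Their lines came from a late postnatal and an adult pig and differed in passage. Which line gave which library is not stated in the labels. Both grew in a medium with WNT3a, R-spondin and noggin from a conditioned supplement, EGF, FGF10, A83-01, prostaglandin E2, gastrin, Y-27632, nicotinamide, N-acetylcysteine and GlutaMAX (a stable source of glutamine). Primary pancreas 1 and 2 were freshly dissociated organs of late postnatal German landrace pigs, a wild-type animal and an INS-eGFP animal whose beta cells carry a fluorescent reporter under the insulin promoter, processed on different days. Hand-isolated ducts were used for the first, and the second was a pool of cells sorted for a ductal lectin, of INS-eGFP cells and of the whole suspension, so cell shares do not describe the organ. All cells were sorted as live. Group and culture coincide, so what PPDO carry as a cell type and what the medium does cannot be told apart.

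Amino acids are charged or polar and cross membranes through carrier proteins, of which these families are a part. Members of SLC1, SLC6, SLC36 and SLC38 mostly couple uptake to sodium or protons, whereas most members of SLC7 are exchangers, and several of these work only as a pair with a heavy chain, SLC3A2 or SLC3A1. Acinar cells make digestive enzymes from large amounts of amino acids, endocrine cells secrete hormones in answer to some of them, and many cultured cells are known for high uptake of glutamine and cystine. Some SLC6 members carry neurotransmitters, taurine or creatine rather than the amino acids of proteins.

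After filtering, 8885 and 7337 cells of PPDO 1 and 2 and 5671 and 4261 cells of primary pancreas 1 and 2 were kept. The libraries held between 87043513 and 366263520 unique molecular identifiers (UMIs, counted molecules), of which the members took between 0.0781% and 0.0954%, and any pair of libraries shared between 10 and 23 cell barcodes. Cells of primary pancreas were clustered without the member genes and named by markers, which gave 2310 and 1188 ductal-like, 257 and 56 acinar-like, 101 and 2203 endocrine-like, 752 and 48 stromal-like, 1073 and 264 endothelial-like and 709 and 138 immune-like cells in libraries 1 and 2. Counts were summed per class and library, because cells are not replicates, and levels are given as CPM, the UMIs of a gene scaled to the same total (1e6) in every sum. Statements on classes below cover these 6, and Schwann-like cells, found almost only in library 1, are named where used. The 9 ductal markers found by name summed to 29500 and 33500 CPM in ductal-like cells and to 1040 and 921 CPM in PPDO. SLC4A4 gave 22200 and 25900 CPM of the ductal-like sums and 418 and 327 of the PPDO sums. Each of the 9 was lower in PPDO. KRT7 differed least, at 389 and 384 against 568 and 596 CPM, and PKHD1 was at 0.585 and 0.549 against 2390 and 2570. KRT19 and MUC1, also on the list, were not found by name. The 17 immune markers summed to 4840 and 4540 CPM in PPDO, above the 1100 and 1110 of ductal-like cells. CD74, a chaperone of antigen presentation, gave 4810 and 4520 CPM of the PPDO sums and CD68 gave 19.4 and 15.7. Each other marker of the list was at most at 3.84 CPM there, among them PTPRC, which marks blood-derived cells, at 0.419 and 0.210. Free RNA was estimated from INS found in immune-like cells, which was 2.11% and 3.11% of the INS level of libraries 1 and 2. A sum of RNA cannot tell fewer cells with a transcript from less of it per cell.

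Of the 56 members, 27 reached 10 CPM in both libraries of at least 1 class or of PPDO, and 26 stayed under 10 CPM in all 6 classes and PPDO. The second set held the carriers of noradrenaline (SLC6A2), dopamine (SLC6A3) and serotonin (SLC6A4), SLC6A11, SLC6A12 and SLC6A13, which carry GABA or betaine, and SLC6A19, a neutral amino acid carrier of the gut with 6 UMIs in all cells kept. SLC6A11 was at 11.8 CPM in Schwann-like cells and at 24.2 CPM in the cluster led by GCG, the glucagon gene, in library 2. Among the 27, 18 had their highest primary level in the same class in both libraries. That class was acinar-like for 8, endocrine-like for 3, immune-like for 3, stromal-like for 2, endothelial-like for 2 and ductal-like for 0. Summed over all members, the level ran from 580 CPM in the ductal-like cells of library 2 to 1330 CPM in the endocrine-like cells of library 1, and was 914 and 950 CPM in PPDO.

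**Figure D1:**
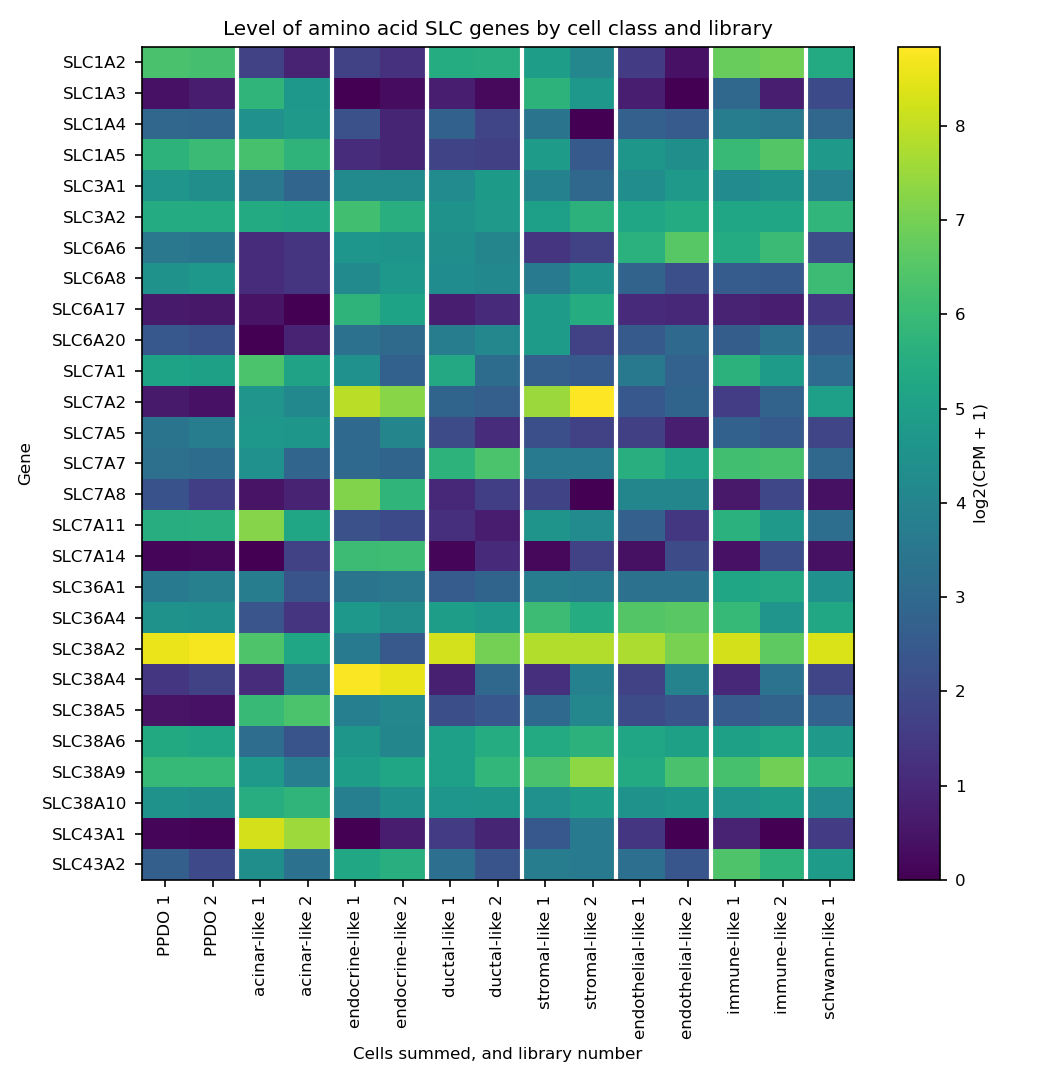
Heat map of log2(CPM + 1) for the 27 members that reached 10 CPM in both libraries of a class or of PPDO, with 1 column for each class and library. Schwann-like cells are drawn for library 1 only, since library 2 held 1 such cell. SLC38A2 was bright in PPDO and in most classes but dark in endocrine-like cells, where SLC38A4 was bright, and SLC43A1 was bright only in the acinar-like columns of those drawn.

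The heavy chains were read first, since the exchangers depend on them. SLC3A2 was at 40.9 and 38 CPM in acinar-like and 30.6 and 50.7 in stromal-like cells. Levels were similar in endothelial-like (35.4 and 41.8 CPM) and immune-like cells (36.9 and 36.3). In endocrine-like cells SLC3A2 was at 71.0 and 45.0 CPM. Without the UMIs of the hormone genes INS, GCG, SST and PPY it was at 121 and 96.1 CPM there. Ductal-like cells had the lowest values, 22.2 and 25.9 CPM. SLC3A1, the heavy chain of the cystine and basic amino acid exchanger SLC7A9, was at 18 and 27.3 CPM in ductal-like cells and at 6.34 to 25.7 CPM in the other classes. Its light chain SLC7A9 was at 1.87 and 3.19 CPM in ductal-like cells, its highest class in both libraries.

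Among the SLC7 light chains and cationic carriers each class had its own pattern. SLC7A5, the exchanger that brings in leucine and other large neutral amino acids, was at 25 and 24.5 CPM in acinar-like, 7.1 and 15.1 in endocrine-like and 3.14 and 1.18 in ductal-like cells. SLC7A8, a related exchanger, was at 142 and 54.4 CPM in endocrine-like and 15.7 and 15.7 in endothelial-like cells. It did not pass 2.69 CPM in the remaining primary classes. SLC7A11, which imports cystine in exchange for glutamate, was at 149 and 35.6 CPM in acinar-like and 48.8 and 26.2 in immune-like cells but at 1.32 and 0.631 in ductal-like cells. SLC7A7, which exports basic amino acids, was at 52.0 and 79.8 CPM in ductal-like, 71.1 and 76.5 in immune-like and 21.4 and 6.34 in acinar-like cells. In RefSeq SLC7A8 and SLC7A7 lie near each other on chromosome 7 of the pig assembly Sscrofa11.1, at chr7:75854700-75921931 and chr7:76195774-76235406.

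The arginine and lysine carriers also differed by class. SLC7A1 was at 79.4 and 33.3 CPM in acinar-like cells, and at 39.7 CPM in ductal-like cells of library 1 against 7.81 in those of library 2. SLC7A2 was at 243 and 152 CPM in endocrine-like and 180 and 456 in stromal-like cells, and at 2.06 to 23.4 CPM in the other classes. SLC7A14, a related protein of lysosomes, was at 65.1 and 67.0 CPM in endocrine-like cells and at most at 3.36 CPM in any other primary class, where the estimate for free RNA was 0.0339 and 1.51 CPM in libraries 1 and 2. SLC7A10, which carries small neutral amino acids such as serine, was at 14.2 and 6.91 CPM in stromal-like cells and at most at 0.344 CPM elsewhere.

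In SLC1, the glutamate carriers SLC1A2 and SLC1A3 had different patterns, though both were present in stromal-like cells. SLC1A2 was at 108 and 124 CPM in immune-like, 43.1 and 44.7 in ductal-like and 29.2 and 16.1 in stromal-like cells, and did not pass 2.38 CPM in acinar-like, endocrine-like or endothelial-like cells. SLC1A3 was at 53.6 and 25.3 CPM in acinar-like and 51.1 and 25.3 in stromal-like cells, and at 0.660 and 0.158 in ductal-like cells. SLC1A5, the main glutamine exchanger of dividing cells, was at 75.4 and 52.3 CPM in acinar-like and 62.9 and 88.6 in immune-like cells, but at 1.18 and 0.882 in endocrine-like and 2.53 and 2.17 in ductal-like cells. The alanine and serine carrier SLC1A4 was at 21.4 and 26.1 CPM in acinar-like and at 12.5 and 10.7 in immune-like cells.

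In SLC6, the taurine carrier SLC6A6 was at 48.8 and 92.4 CPM in endothelial-like and 41.9 and 64.5 in immune-like cells, and at 1.19 to 2.30 CPM in acinar-like and stromal-like cells. SLC6A17, which loads neutral amino acids into vesicles, was at 52.6 and 33.8 CPM in endocrine-like and 27.9 and 43.8 in stromal-like cells, and at most at 1.10 CPM in the other 4 classes. The creatine carrier SLC6A8 was spread over ductal-like, endocrine-like and stromal-like cells at 11.7 to 25.4 CPM. In the proton-coupled SLC36 family, SLC36A1 of lysosomes was at 35.2 and 39.6 CPM in immune-like cells and at most at 12.3 CPM in the other classes. SLC36A4 was at 87.3 and 94.1 CPM in endothelial-like and 65.5 and 43.8 in stromal-like cells.

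The SLC38 carriers SLC38A2 and SLC38A4 had opposite patterns. SLC38A2, a sodium-coupled carrier of glutamine and alanine that cells raise when amino acids run short, was at 302 and 126 CPM in ductal-like, 226 and 226 in stromal-like, 213 and 131 in endothelial-like, 306 and 98.0 in immune-like and 83.4 and 36.4 in acinar-like cells. In endocrine-like cells it was at 11.2 and 4.56 CPM, below every other class in both libraries. SLC38A4, which takes up neutral and some cationic amino acids, was at 443 and 375 CPM in endocrine-like cells and at 0.706 to 14.4 CPM elsewhere. The values of library 2 outside endocrine-like cells, 6.74 to 14.4 CPM, lay around the 8.48 CPM estimated for free RNA. The genes of these carriers are neighbours on chromosome 5, SLC38A2 at chr5:77113491-77127715 and SLC38A4 at chr5:77411610-77489542. The 18 endocrine markers, hormones included, summed to 425000 and 544000 CPM in endocrine-like cells. Without the UMIs of INS, GCG, SST and PPY the level of SLC38A2 there was 19.2 and 9.74 CPM.

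Among the rest of SLC38, SLC38A5, a reversible glutamine carrier, was at 62.7 and 79.2 CPM in acinar-like and 13.0 and 16.2 in endocrine-like cells, and at 3.32 and 4.30 in ductal-like cells. SLC38A9, the arginine sensor of the lysosome, was present in every class at 12.7 to 161 CPM. In SLC43, SLC43A1 and SLC43A2 carry branched-chain and other large neutral amino acids by facilitated diffusion, whereas SLC43A3 carries purine bases. SLC43A1 was at 308 and 185 CPM in acinar-like cells and at most at 11.5 CPM in any other primary class. SLC43A2 was at 84.2 and 51.0 CPM in immune-like and 37.3 and 45.5 in endocrine-like cells.

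**Figure D2:**
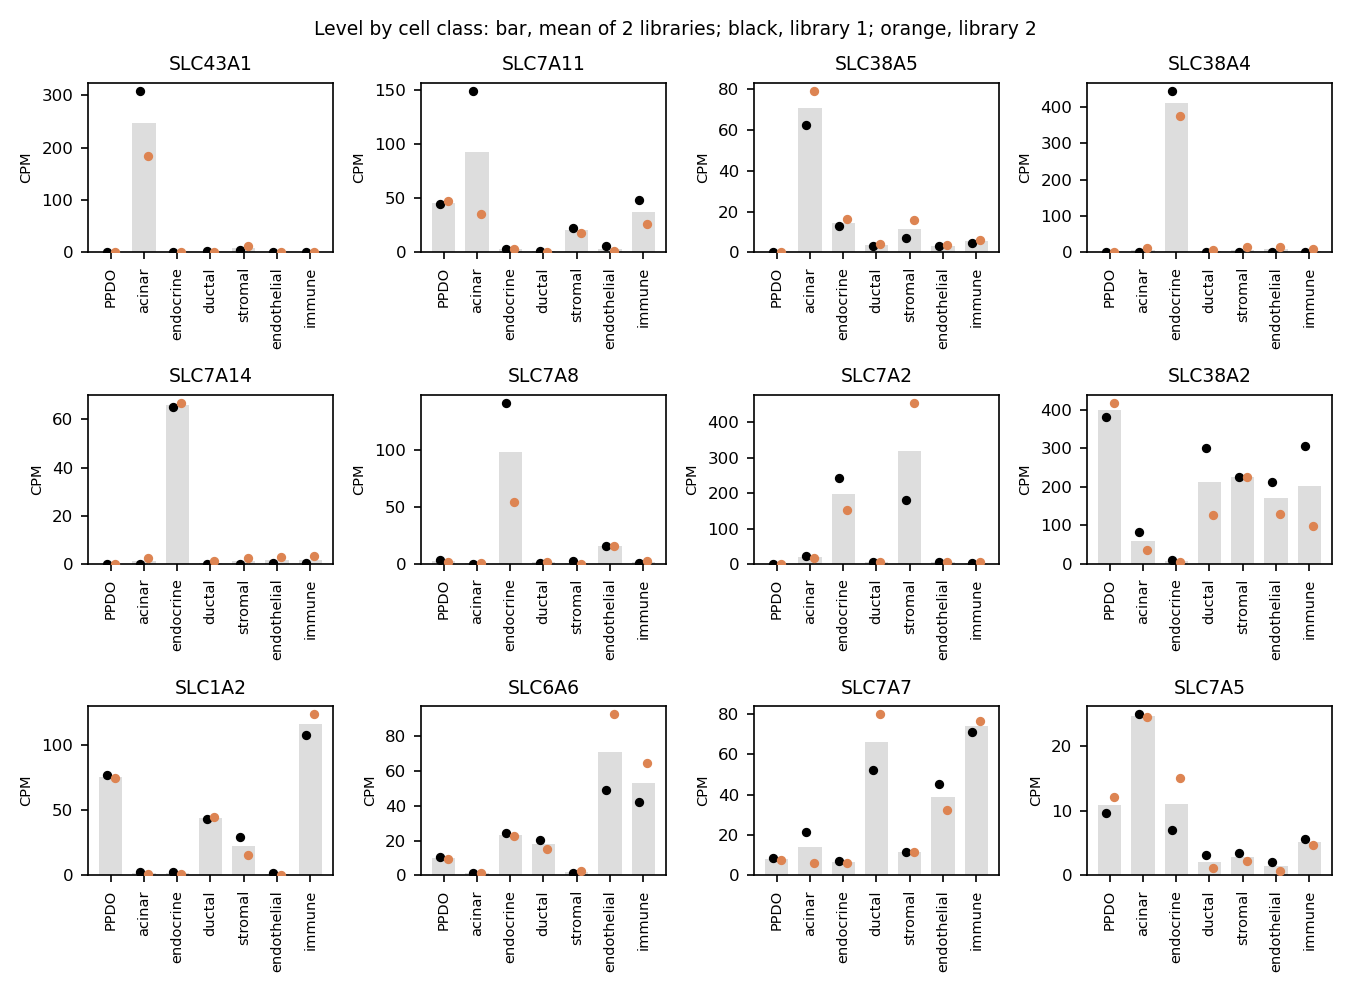
CPM of 12 members in PPDO and in the 6 primary classes, with the mean of 2 libraries as a bar and each library as a point. The bars of SLC43A1, SLC38A4 and SLC7A14 stood out in a single class, whereas SLC7A2 was high in endocrine-like and stromal-like cells and SLC7A7 in ductal-like, endothelial-like and immune-like cells.

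To ask which of these differences exceeded their own variation between libraries, each class was compared with the unweighted mean of the other 5 on the log2 scale. The fit took the 12 sums with library as a block (edgeR quasi-likelihood test, adjusted over 16976 genes). Classes with little of a gene pull that mean down, and the scaling of sums (TMM) adds to this, so fold changes differ from ratios of mean CPM. In acinar-like cells SLC1A5 was higher by 4.07 in log2, or by 2.72 with plain library sizes, where the log2 ratio of mean CPM was 1.43. SLC7A2 was higher there by 1.24 at 0.189 times the mean CPM of the other classes. Its log2 fold change was -0.15 with plain library sizes. Each class is part of the reference of the others, so the 6 comparisons are not independent. The block takes out the overall difference between libraries, so p-values measure how class differences varied between these libraries. All sums come from 2 animals, and p-values do not reach beyond them. Of the 56 members 40 passed the filter on low counts. A member that is abundant in a single class passes this filter through that class, so the counts of members called describe the list and support nothing by themselves. Scaling (TMM) mattered, since acinar-like and endocrine-like sums are rich in a few transcripts. With plain library sizes the median log2 fold change over all genes moved from -0.45 to -1.77 in acinar-like, from 0.10 to -0.45 in endocrine-like and from 0.12 to 0.59 in ductal-like cells, and the share of calls that were higher went from 48.5% to 8.86%, from 62.1% to 37.4% and from 62.9% to 82.1%. In stromal-like, endothelial-like and immune-like cells that share went from 69.9% to 91.3%, from 60.8% to 76.4% and from 54.6% to 73.0%.

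In acinar-like cells 14 of 40 members were higher, where 12.2% of all genes were, and 5 were lower, where 12.9% were. SLC43A1 had the largest fold change (log2 8.92, SE 0.37, adjusted p = 1.8e-11), followed by SLC1A3 (6.0, SE 0.35, adjusted p = 9.8e-10), SLC7A11 (5.01, SE 0.26, adjusted p = 2.2e-10) and SLC38A5 (4.86, SE 0.22, adjusted p = 5e-11). SLC7A5 and SLC1A5 were higher by 4.07 each, SLC1A4 by 3.76, SLC7A1 by 3.50 and SLC38A10 by 2.52. These 9 also passed with plain library sizes. The log2 fold change of the heavy chain SLC3A2 was 1.48 with TMM and 0.08 with plain library sizes, and those of SLC43A2 and SLC7A2 turned from 1.09 to -0.21 and from 1.24 to -0.15. The acinar-like sum of library 1 pooled a pair of clusters that differed in most of these members, as described with the clusters. The class also depended on the clustering resolution. At resolution 1.0 it held 108 and 175 cells in libraries 1 and 2, and 15 members were higher. A cluster of 149 cells of library 1, led by ADAD1 and SPHKAP, then took no name.

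In endocrine-like cells 16 of 40 members were higher (22.1% of all genes) and 9 were lower (13.5%). Among members at 20 CPM or more, SLC38A4 (log2 7.53, SE 0.38, adjusted p = 2.9e-10), SLC7A14 (7.05, SE 0.40, adjusted p = 6.7e-10) and SLC7A8 (5.98, SE 0.34, adjusted p = 6.2e-10) led. SLC6A11 was also higher at a low level, 4.73 and 6.59 CPM (adjusted p = 2.1e-06). It had 0 UMIs in acinar-like, endothelial-like and immune-like cells of both libraries, so no size is given for its fold change. Without the endocrine-like sum of library 1 or 2, SLC38A4 was at 5.91 or 8.61, SLC7A14 at 5.71 or 8.46 and SLC7A8 at 5.22 or 6.53. Named after their values were seen, the vesicular carrier SLC6A17 was higher by 5.29 (SE 0.28, adjusted p = 3.8e-10) and SLC7A2 by 4.23 (SE 0.26, adjusted p = 1.5e-09). SLC38A2 was lower by a log2 fold change of -3.89 (SE 0.41, adjusted p = 8.6e-07) and SLC1A5 by -3.80 (SE 0.48, adjusted p = 6.8e-06). SLC3A2 was higher by 1.17 (SE 0.23, adjusted p = 5.6e-04), or by 0.72 (adjusted p = 0.041) with plain library sizes. The call of SLC7A5, which was higher by 2.11 (SE 0.43, adjusted p = 8.5e-04), was lost without the endocrine-like sum of library 2.

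Ductal-like cells were the class with the most members called lower, 19 of 40 where 12.7% of all genes were lower, and 7 were higher where 21.4% were. The fitted log2 fold changes were -4.47 for SLC7A11 (SE 0.40, adjusted p = 1.7e-07), -3.49 for SLC1A5 (SE 0.41, adjusted p = 3.3e-06), -1.99 for SLC7A5 (SE 0.47, adjusted p = 0.0031) and -1.25 for SLC3A2 (SE 0.26, adjusted p = 0.0012). The higher members included SLC1A2 (2.29, SE 0.27, adjusted p = 3.9e-06), chosen after its values were seen like the rest here, and SLC7A7 (1.25, SE 0.26, adjusted p = 0.0012). The calls of SLC7A5 and SLC7A7 were lost without the ductal-like sum of library 2.

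In immune-like cells 12 of 40 were higher (22.1% of all genes) and 8 lower (18.4%). Those at 20 CPM or more that were above every other class in both libraries were SLC1A2 (log2 4.03, SE 0.26, adjusted p = 1.7e-09), SLC43A2 (2.04, SE 0.29, adjusted p = 2.6e-05) and SLC36A1 (1.66, SE 0.27, adjusted p = 1.0e-04). SLC1A5 (2.58, SE 0.29, adjusted p = 1.6e-06) and SLC6A6 (2.07, SE 0.28, adjusted p = 1.5e-05) had larger fold changes than SLC43A2 but were not above every other class in both libraries. In endothelial-like cells 4 were higher (19.3%) and 11 lower (12.5%). The higher ones included SLC6A6 (2.60, SE 0.27, adjusted p = 7.1e-07), SLC7A8 (2.14, SE 0.40, adjusted p = 4.4e-04) and SLC36A4 (1.79, SE 0.27, adjusted p = 4.4e-05). In stromal-like cells 10 were higher (17.0%) and 6 lower (7.34%), and no member met the naming rule. Picked after their values were seen, SLC1A3 was higher there by 3.90 (SE 0.38, adjusted p = 3.6e-07) and SLC7A2 by 3.81 (SE 0.27, adjusted p = 7e-09). SLC7A10, picked likewise, was also higher (adjusted p = 8.3e-07). It had 0 UMIs in acinar-like cells and at most 7 in any sum of the remaining classes, so no size is given for its fold change. The stromal-like sum of library 2 rested on 48 cells.

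Within classes, clusters differed further, and these values are a description with no test, since clusters are cut from the same cells. Acinar-like cells of library 1 fell in a cluster of 185 cells, where the acinar markers took 7.2% of UMIs, and one of 72 cells, led by CELA2A and PLA2G1B, where they took 24.4%. All 56 acinar-like cells of library 2 fell in the former, with 22.8%. In the cluster of 72 cells SLC7A11 was at 3.40 CPM against 228 in the other, SLC1A3 at 2.27 against 81.2 and SLC7A1 at 6.81 against 118. The gap was smaller for SLC43A1 (120 against 410) and SLC38A5 (35.2 against 77.6), and SLC7A5 was at 22.7 against 26.3. The acinar-like levels of SLC7A11, SLC1A3 and SLC7A1 in library 1 thus came from the cluster with the smaller share of acinar markers.

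The endocrine-like cluster led by GCG held 55 and 427 cells, with a median of 8002.5 UMIs. At resolution 1.0 a cluster led by GCG and SST held 41 and 67 cells, and one led by RBFOX1 and GRM5 held 14 and 360. Whether the library 2 levels of the GCG-led cluster are those of cells with GCG was not tested. SLC7A2 was at 409 and 405 CPM in the GCG-led cluster and at 89.8 to 211 CPM in the other 3 endocrine-like clusters. SLC7A8 was at 341 and 190 CPM against 36.4 to 67.1, and SLC38A4 at 475 and 913 against 181 to 562. INS took 42.1% to 65.3% of the UMIs of those 3 clusters and 1.80% and 4.54% of the UMIs of the GCG-led cluster, and a larger share for INS leaves a smaller one for every other gene. Without hormone UMIs SLC7A8 was at 408 and 209 CPM in the GCG-led cluster against 100 to 135 in the others, and SLC7A2 at 490 and 447 against 260 to 365. The levels of SLC38A4 then overlapped, at 569 and 1010 CPM against 523 to 971, and in library 1 the GCG-led cluster lay below the INS-led cluster (688). SLC7A5 was at 11.3 and 8.28 CPM against 8.43 to 49.2. SLC38A2 without hormone UMIs was at 8.97 to 19.8 CPM across all these clusters.

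Clusters of immune-like cells also differed. In the cluster led by CCL5, CD3E and GNLY, genes of T and natural killer cells, SLC1A2 was at 203 and 91.0 CPM and SLC1A4 at 40.2 and 29.0. In the cluster led by FCER1G and TYROBP, genes of myeloid cells, SLC1A5 was at 96.5 and 124 CPM, SLC6A6 at 92.0 and 111, SLC7A7 at 80.4 and 123 and SLC43A2 at 178 and 55.9. SLC1A4 was at most at 1.33 CPM in that myeloid cluster, whereas SLC1A2 was at 50.8 and 154 CPM there, below the T and natural killer cluster in library 1 and above it in library 2. Another cluster, with the myeloid genes C1QB and CD163 among its leading genes, was read in library 1 only (204 cells). It had SLC1A5 at 68.6, SLC6A6 at 25.4, SLC7A7 at 99.9 and SLC43A2 at 57.9 CPM. SLC7A11 was at 96.3 CPM in it, against 6.88 in the T and natural killer cluster and 18.7 in the FCER1G cluster of library 1. Among stromal-like cells, the cluster led by MYH11 and ACTA2, genes of smooth muscle, had SLC7A2 at 303 and 528 CPM and SLC6A17 at 51.4 and 52.0. The cluster led by DCN and LUM, genes of fibroblasts, was read in library 1 only, with SLC1A3 at 99.5, SLC6A20, a proline carrier, at 56.6 and SLC7A10 at 30.9 CPM. Schwann-like cells, also read in library 1 only and in none of the tests, had the highest class level of the creatine carrier SLC6A8, 65.1 CPM.

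The next question was how PPDO differed from the ductal-like cells of the organ they are grown from. Of the 56 members 50 passed the filter on low counts, and 14 were higher in PPDO, 28.0% of those tested beside 22.8% of 23557 genes. Another 9 were lower, 18% beside 20.9%. The median log2 fold change was 0.45 over the members tested and 0.01 over all genes. With TMM the shares of members called lay near those of all genes. With plain library sizes the median of all genes moved to -0.45, and the share of calls that were higher went from 52.2% to 31.6%. There 11 members were higher and 10 lower, beside 3234 genes higher and 6987 lower over all genes. Each group had 2 libraries, which are separate lines or animals. Fold changes below are log2 values of PPDO over ductal-like cells.

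SLC7A11 and SLC1A5 changed most among members at 20 CPM or more. SLC7A11 was at 44.3 and 47.2 CPM in PPDO 1 and 2 and at 1.32 and 0.631 CPM in ductal-like cells of primary pancreas 1 and 2. The means differed 46.9-fold, and the fitted log2 fold change was 5.93 (SE 0.47, adjusted p = 0.0016), or 6.72 without primary pancreas 1 and 5.43 without primary pancreas 2. SLC1A5 was at 51.5 and 63.5 CPM against 2.53 and 2.17, a 24.5-fold difference of means and a log2 fold change of 5.06 (SE 0.27, adjusted p = 7.5e-04). Without the features that extend the 3' ends of genes, the log2 fold change of SLC1A5 was 6.29 (adjusted p = 0.0014). For both members PPDO libraries lay close together and far above both ductal-like sums.

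The exchanger of large neutral amino acids rose with its heavy chain. SLC7A5 was at 9.63 and 12.1 CPM in PPDO and 3.14 and 1.18 in ductal-like cells (2.72, SE 0.58, adjusted p = 0.021), and this call was lost without PPDO 1 (adjusted p = 0.059) or PPDO 2 (adjusted p = 0.086). Its log2 fold change was 3.74 without primary pancreas 1 and 2.11 without primary pancreas 2. SLC3A2 was at 42.4 and 42.0 CPM against 22.2 and 25.9 (1.28, SE 0.13, adjusted p = 0.0030). SLC3A1, the other heavy chain, was at 23.3 and 19.4 CPM against 18 and 27.3 and did not pass (0.39, SE 0.19, adjusted p = 0.17).

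SLC7A7, which pairs with SLC3A2 to export basic amino acids, was the only lower member at 20 CPM or more. It was at 8.54 and 7.62 CPM in PPDO and at 52.0 and 79.8 CPM in ductal-like cells (-2.55, SE 0.19, adjusted p = 0.0014). SLC7A9, the light chain of SLC3A1, was at 0.0199 and 0.0343 CPM in PPDO and at 1.87 and 3.19 in ductal-like cells (-6.02, SE 0.51, adjusted p = 0.0018), and its fitted log2 fold change without the extensions was -6.81. The PPDO values of SLC7A9 rest on a sum of 300990260 and 262372786 UMIs, where 3 UMIs, the floor that counting error alone sets, are 0.00997 and 0.0114 CPM. SLC7A2 was at 0.568 and 0.339 CPM against 6.17 and 5.36 (-3.23, SE 0.39, adjusted p = 0.0044), where the estimate for free RNA in the ductal-like sums was 0.584 and 3.51 CPM. The light chains of SLC3A2 therefore moved in opposite directions, SLC7A11 and SLC7A5 up and SLC7A7 down, while SLC7A8 was at 3.65 and 2.14 CPM against 0.979 and 2.13 and did not pass (1.40, SE 0.46, adjusted p = 0.064).

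Of the other members, the glutamate carrier SLC1A2 was at 77.1 and 74.8 CPM in PPDO and 43.1 and 44.7 in ductal-like cells (1.25, SE 0.14, adjusted p = 0.0034). SLC36A1 of lysosomes was at 11.4 and 13.3 against 4.99 and 6.27 CPM (1.61, SE 0.21, adjusted p = 0.0052). SLC38A7, a glutamine carrier of lysosomes, was at 6.43 and 6.38 against 3.69 and 2.96 CPM (1.38, SE 0.28, adjusted p = 0.018). SLC38A9 and SLC6A8 also passed, with smaller fold changes. SLC38A9 was at 59.7 and 59.5 against 30.5 and 57.0 CPM, so PPDO lay just above the higher ductal-like sum (0.94, SE 0.25, adjusted p = 0.037). SLC6A8 was at 22.3 and 25.3 against 18.8 and 16.5 CPM (0.88, SE 0.22, adjusted p = 0.031). Neither passed with plain library sizes, at 0.45 (adjusted p = 0.29) and 0.43 (adjusted p = 0.15), nor without either PPDO library. SLC6A8 also did not pass with replicate as a block (0.89, adjusted p = 0.057) or with sums thinned to the smallest depth (0.69, adjusted p = 0.057).

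Members of low level changed by large folds. SLC6A14, a carrier of many neutral and cationic amino acids, was at 2.32 and 2.27 CPM in PPDO and 0.0683 and 0.276 in ductal-like cells (4.35, SE 0.59, adjusted p = 0.0058). The ductal-like values of SLC6A14 rest on 3 and 7 UMIs, and its fold change was 3.59 without primary pancreas 1 and 5.37 without primary pancreas 2. The glycine carrier SLC6A9 was at 2.70 and 2.80 against 0.273 and 0.552 CPM (3.26, SE 0.39, adjusted p = 0.0043). The proline carrier SLC6A7 was at 1.56 and 0.556 against 0.0228 and 0.0789 CPM (adjusted p = 0.012), where the ductal-like values are 1 and 2 UMIs, under the floor of 3, so no size is given for its fold change. In the other direction SLC38A5 was at 0.389 and 0.343 against 3.32 and 4.30 CPM (-2.91, SE 0.30, adjusted p = 0.0029; -4.93, adjusted p = 0.0017, without the extensions) and SLC43A1 at 0.0764 and 0.0572 against 1.89 and 0.907 (-3.98, SE 0.59, adjusted p = 0.0074). Ductal-like SLC38A5 and SLC43A1 were above the 0.127 to 0.456 CPM estimated for free RNA from INS. That estimate does not measure free RNA of acinar cells, where both members were highest. The 12 acinar markers summed to 831 and 588 CPM in ductal-like cells and 132000 and 228000 in acinar-like cells. In PPDO they summed to 37.8 and 42.1 CPM, and carry-over of acinar RNA was not tested.

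**Figure D3:**
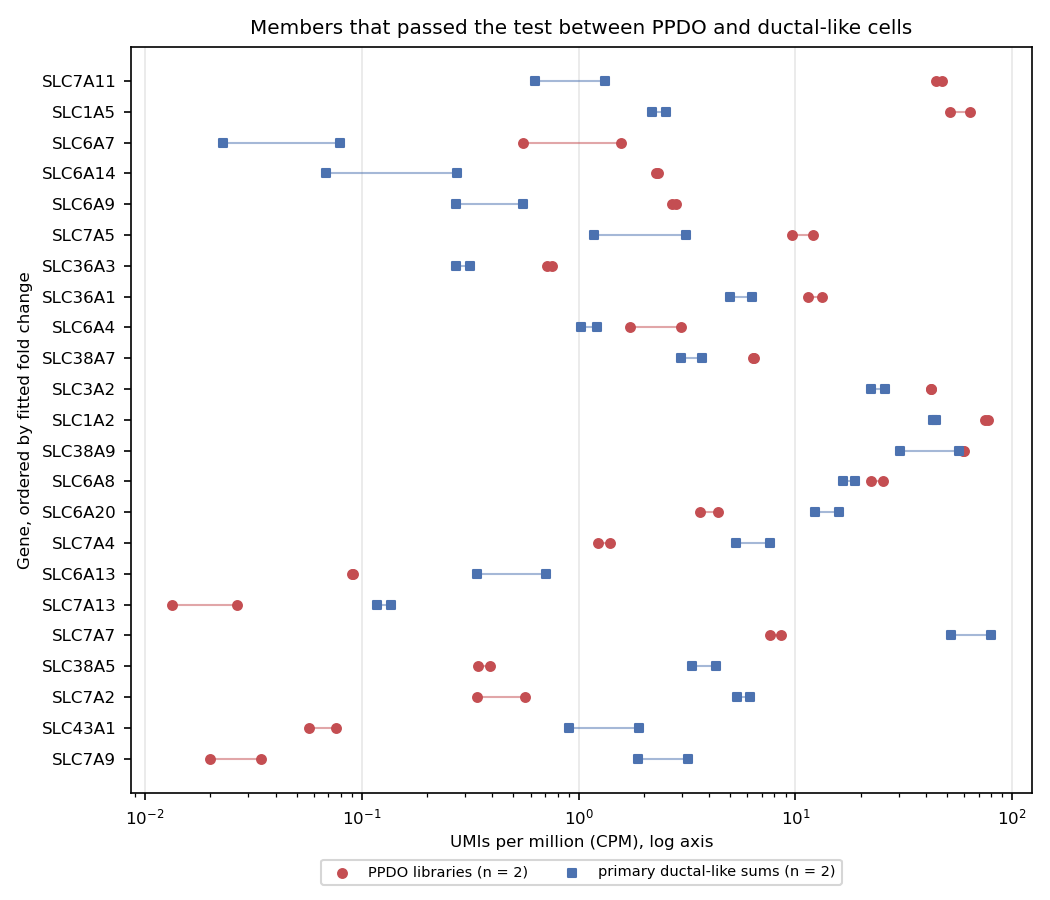
CPM on a log axis of the 23 members that passed the test, with each PPDO library as a circle and each ductal-like sum as a square. In every row all circles lie on one side of both squares, and the gap is narrowest for SLC38A9, where the upper square (57.0) lies just under the circles (59.5 and 59.7).

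Of the 23 calls, 11 held when each of the 4 libraries was left out in turn, those of SLC7A11, SLC1A5, SLC6A14, SLC6A9, SLC36A1, SLC3A2, SLC1A2, SLC7A7, SLC38A5, SLC7A2 and SLC7A9. A group with 1 library left is assumed to vary like the other. The remaining 12 calls were lost in at least 1 of these fits. SLC36A3, SLC38A7, SLC38A9, SLC6A13, SLC6A4, SLC6A8, SLC7A4 and SLC7A5 were lost without PPDO 1 and also without PPDO 2. SLC43A1 and SLC6A20 were lost only without PPDO 2. SLC6A7 was lost without primary pancreas 1, SLC7A13 was lost without primary pancreas 2 and did not pass the filter on low counts in the other 3 fits, and SLC6A4, the serotonin carrier, was lost in all 4.

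**Figure D4:**
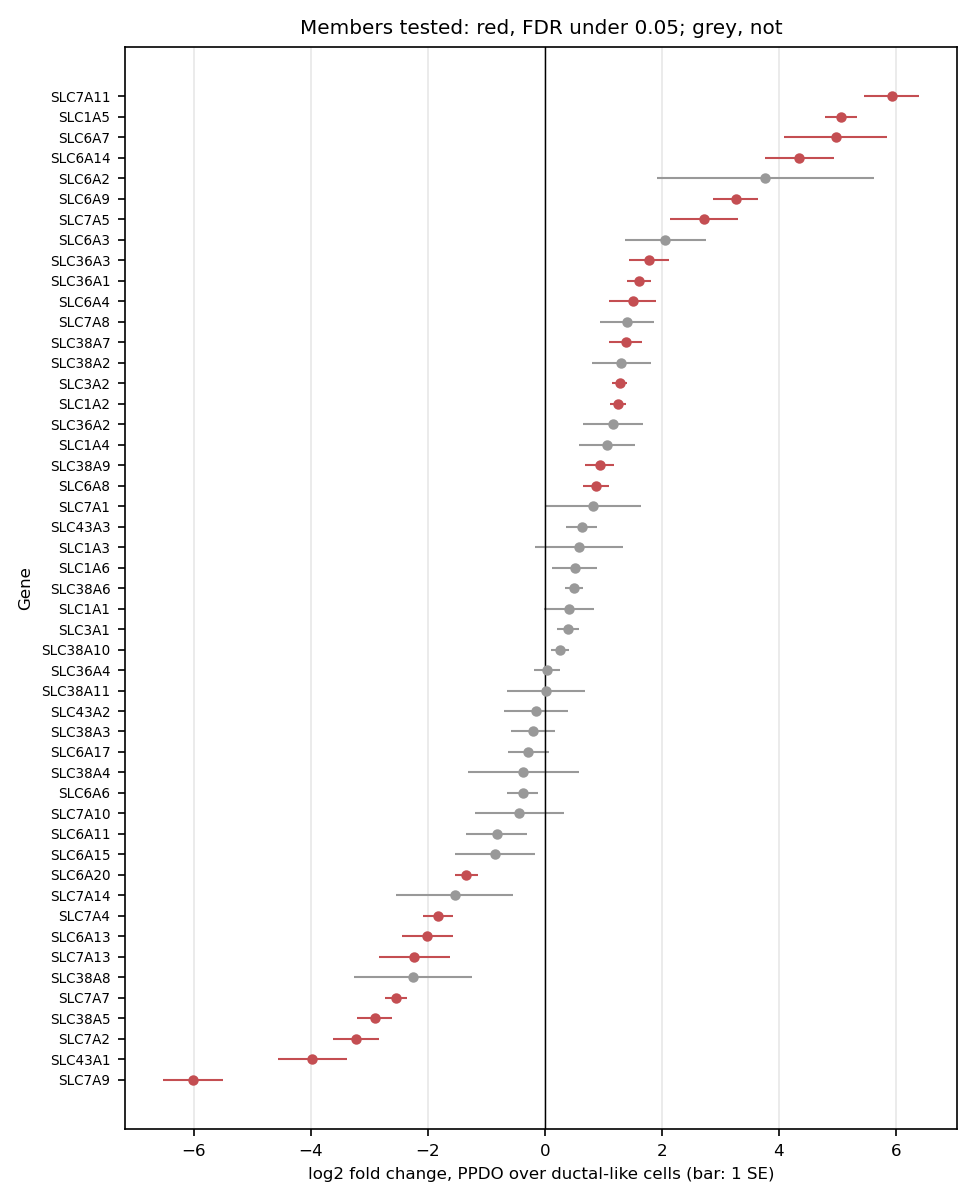
Fitted log2 fold change of PPDO over ductal-like cells with 1 SE for the members tested and reported here, red where the adjusted p was under 0.05. The values run from -6.02 (SLC7A9) to 5.93 (SLC7A11), and bars of members that did not pass reach across 0 for some, such as SLC7A1 (0.83, SE 0.81), and not for others, such as SLC38A2 (1.31, SE 0.51).

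SLC38A2, SLC7A1 and SLC1A4 did not pass, and their ductal-like sums differed between the primary libraries. SLC38A2 was at 381 and 419 CPM in PPDO and 302 and 126 in ductal-like cells (1.31, SE 0.51, adjusted p = 0.099). SLC7A1 was at 34.2 and 31.2 against 39.7 and 7.81 CPM (0.83, SE 0.81, adjusted p = 0.44), and SLC1A4 at 6.61 and 6.30 against 5.62 and 2.56 (1.06, SE 0.48, adjusted p = 0.14). Without primary pancreas 1 all 3 passed, at 2.20 (adjusted p = 0.0029), 2.60 (adjusted p = 0.0025) and 1.87 (adjusted p = 0.0079), and without primary pancreas 2 the values were 0.72 (adjusted p = 0.023), 0.04 (adjusted p = 0.84) and 0.52 (adjusted p = 0.10), so a difference in SLC7A1 rested on primary pancreas 2. Different clusters made up the class in the 2 libraries. Of 2310 ductal-like cells of library 1, 1289 fell in a cluster led by OSGIN1, a gene of oxidative stress, and EREG, a ligand of the EGF receptor, which held 0 cells of library 2. In that cluster SLC38A2 was at 354 and SLC7A1 at 48.6 CPM. In the other 5 ductal-like clusters SLC38A2 was at 72.7 to 183 CPM. SLC7A1 was at 40.0 CPM in a shallow cluster of 145 cells of library 1 and at 2.60 to 20.6 CPM in the other 4. Without the cluster, an alternative chosen after seeing the data, SLC38A2 (2.00, adjusted p = 0.0015), SLC7A1 (2.06, adjusted p = 0.0082) and SLC1A4 (1.73, adjusted p = 0.0048) were higher in PPDO, and 18 members were higher and 8 lower in all. SLC7A11 and SLC1A5 were low in every ductal-like cluster, at most at 2.74 and 9.99 CPM.

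PPDO cells were not uniform in these genes, as their 9 clusters showed. The cluster led by DTL and MCM3, genes of DNA replication, had the highest SLC1A5, 91.3 and 104 CPM in PPDO 1 and 2, the highest SLC3A2, 60.2 and 60.1 CPM, and the highest SLC7A1, 57.6 and 52.0 CPM. SLC7A5 was highest in that cluster (20.6 and 21.6 CPM), in the cluster led by the mitosis genes CENPF and TOP2A (19.4 and 23.4) and in the cluster led by HMCN1 and LGR6 (15.5 and 19.5). It was at 8.52 CPM or less in the other 6 clusters.

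Several clusters were low in these members. In the cluster led by ADM and VEGFA, genes induced by low oxygen, SLC7A11 was at 7.12 and 23.6 CPM and SLC7A5 at 2.07 and 4.75. In the cluster led by KLK7 and DSG1, genes of the outer epidermis, SLC1A5 was at 23.3 and 21.1 CPM. The glutamate and cysteine carrier SLC1A1 was at 12.9 and 17.6 CPM there, its highest level among PPDO clusters. The small cluster led by S100A8 and SPRP, of 40 and 95 cells, had SLC38A2 at 60.4 and 63.7 CPM and SLC7A11 at most at 2.40. The cluster led by SPP1 and WFDC2, secreted products of ducts, had SLC6A14 at 16.8 and 39.4 CPM and SLC6A6 at 31.5 and 53.1, the highest of the 9 in both libraries. SLC7A7 was also highest there, 19.4 and 11.7 CPM, though under the 37.7 to 80.8 CPM of the ductal-like clusters of primary pancreas.

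**Figure D5:**
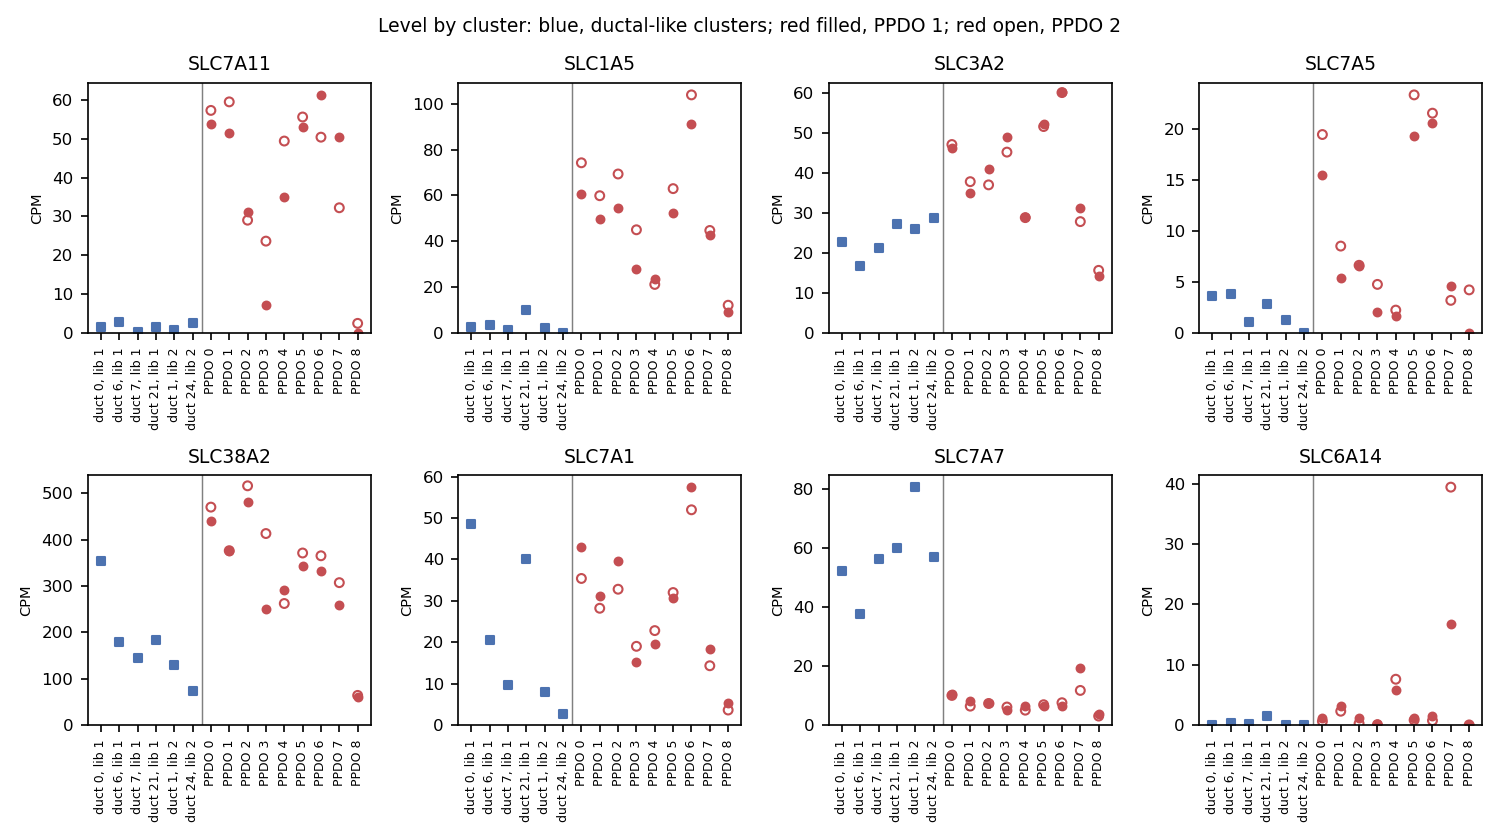
CPM of 8 members in the 6 ductal-like clusters with at least 20 cells (blue squares, with the library) and the 9 PPDO clusters (red, filled for PPDO 1 and open for PPDO 2). SLC7A11 and SLC1A5 were low in all blue squares and varied between PPDO clusters, SLC38A2 and SLC7A1 were highest among blue squares in duct 0, the OSGIN1 cluster, and SLC6A14 was highest in PPDO 7, the SPP1 cluster.

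Genes that work beside these carriers were read in the same fit from lists chosen by function, with earlier results of these data known. None of the lists holds a member. Among targets of the amino acid response, the program that ATF4 runs when amino acids are short, 11 of 21 tested were higher in PPDO and 2 lower (52.4% and 9.52%, beside 22.8% and 20.9% of all genes). The median log2 fold change was 1.04, beside 0.01 over all genes. PSPH, the last enzyme of serine synthesis, was at 69.9 and 62.4 CPM against 5.92 and 8.04 (3.72, SE 0.16, adjusted p = 5.1e-04), and PSAT1, the step before it, at 181 and 186 against 15.8 and 27.3 (3.58, SE 0.24, adjusted p = 0.0011). PHGDH, the first enzyme of serine synthesis, did not pass, at 68.1 and 73.5 against 78.4 and 82.3 CPM (0.28, SE 0.15, adjusted p = 0.19). The list did not move as a whole, since VLDLR, a lipoprotein receptor, fell by 3.58 and NUPR1, a stress factor, by 2.63 on the log2 scale.

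In the list of cystine and glutathione genes 7 of 13 were higher and 1 lower (53.8% and 7.69%, beside 22.8% and 20.9% of all genes). The median was 0.74, beside 0.01 over all genes. GCLC, the first enzyme of glutathione synthesis, which uses cysteine, was at 232 and 212 CPM in PPDO and 19.6 and 11.2 in ductal-like cells (4.27, SE 0.41, adjusted p = 0.0024). NQO1, an antioxidant enzyme, was at 427 and 563 against 33.5 and 47.7 (4.09, SE 0.24, adjusted p = 8.9e-04). GCLM, the partner subunit of GCLC, did not pass, at 23.1 and 20.7 against 49.1 and 42.2 CPM (-0.62, SE 0.20, adjusted p = 0.066). Under plain library sizes 9 were higher and 5 lower in the amino acid response and 5 higher and 2 lower in the glutathione list. Over all genes 3234 were then higher and 6987 lower.

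Among 20 genes of amino acid sensing by mTORC1, 6 were higher and 3 lower (30% and 15%, near the 22.8% and 20.9% of all genes, median 0.42). LAMTOR4 and LAMTOR5, which anchor the kinase to lysosomes, were higher by 1.27 and 0.82, and the stress-induced inhibitors SESN1 and SESN3 fell by 2.75 and 1.82. The related SESN2, counted in the amino acid response list, was higher by 1.81 (SE 0.17, adjusted p = 0.0025). With plain library sizes the count was 1 higher and 4 lower, and without the OSGIN1 cluster 10 higher and 3 lower. Among 18 amino acid enzymes 4 were higher and 3 lower (22.2% and 16.7%, also near those of all genes, median -0.00). GLUD1, which turns glutamate into ketoglutarate, was at 140 and 105 against 37.7 and 34.5 CPM (2.20, SE 0.21, adjusted p = 0.0025), and CSAD, an enzyme of taurine synthesis, was higher by 1.29. BCAT1, which removes the amino group of branched-chain amino acids, was at 45.7 and 40.6 CPM in PPDO and 875 and 935 in ductal-like cells (-3.93, SE 0.15, adjusted p = 4.1e-04), and ASL of the urea cycle fell by 2.05. Plain library sizes gave 1 higher and 5 lower.

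Among 14 other carriers of amino acids or peptides 4 were higher and 6 lower (28.6% and 42.9%, beside 22.8% and 20.9% of all genes). The median was -0.70, beside 0.01 over all genes. CTNS, which exports cystine from lysosomes, was at 188 and 218 against 95.2 and 95.8 CPM (1.55, SE 0.17, adjusted p = 0.0036), and the mitochondrial carrier SLC25A13 was higher by 1.21. The peptide carrier SLC15A2 was at 3.30 and 1.75 against 29.9 and 41.5 CPM (-3.36, SE 0.35, adjusted p = 0.0029), and CLTRN, a partner of brush border carriers of SLC6, at 3.90 and 3.37 against 28.8 and 51.9 (-2.99, SE 0.27, adjusted p = 0.0021). Plain library sizes gave 2 higher and 8 lower.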

How the data were processed

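Libraries were made by the authors with droplet-based 10x chemistry and counted with Cell Ranger 7.1.0 (per the file headers) against an in-house pig annotation. The submitters' processing notes name the build Sscrofa11.1, and positions are those of RefSeq for it. The authors deposited raw UMI counts, without the free RNA correction the study made later, beside lists of barcodes and features. Replicates are the libraries of the titles.

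Features of a gene, extensions of its end included, were summed. Extensions held 4.27% to 5.37% of member UMIs, but 52.0% for SLC7A4, 48.8% for SLC6A20 and 55.7% for SLC6A4. SLC36A2 and SLC36A3 overlap in RefSeq, so their counts are uncertain. A member is counted with the rest but not reported here by name. Cells were kept by the limits of the study, whose sample numbers were taken to be those of the titles: at most 3% mitochondrial UMIs and 1000 to 9000 features in PPDO (the study set a smaller minimum for one of the lines, which the labels tie to no library, so the larger was used for both), and under 8% and 9000 with over 400 features (library 1) or over 800 features and 3000 UMIs (library 2) in primary pancreas. Scrublet scores over 0.25 and 0.15 removed 89 and 154 cells. Clustering used Scanpy 1.11.5 and leidenalg 0.10.2 (2000 variable genes without members, 20 components, 15 neighbours, resolution 0.5), and clusters took the name of the best marker list.

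Sums were tested with edgeR 4.0.16 (TMM, filterByExpr, quasi-likelihood, two-sided, Benjamini-Hochberg over all genes at 0.05), with library as a block between classes. The SE is the fold change divided by the square root of F. DESeq2 1.42.0 was an alternative. The fits were tested on simulated data. Members and lists were chosen with earlier results of these data known. Named members were called ones with at least 20 CPM in the higher group (up to 12 per direction in PPDO, and up to 4 per class that were above every other class in both libraries), 10 members whatever their values, and 2 genes per list and direction. Any other gene named was chosen after its values were seen.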

Additional observations from a re-analysis of the deposited data

How the results depend on the processing

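Apart from fits without a library or a class sum, 85 of 90 counts of members called under other settings stayed within 1.5 times the reported count. With sums thinned to the depth of the smallest, members higher than in the other classes fell from 16 to 9 in endocrine-like, from 7 to 2 in ductal-like, from 10 to 6 in stromal-like and from 12 to 6 in immune-like cells, since fewer UMIs were left. With plain library sizes 16 were higher in stromal-like cells. Leaving out a library in turn gave 8 to 17 members higher and 4 to 10 lower in PPDO, and 11 to 14 higher in acinar-like, 12 to 17 in endocrine-like, 4 to 5 in ductal-like, 6 to 11 in stromal-like, 3 to 3 in endothelial-like and 7 to 10 in immune-like cells. The lowest PPDO counts came without PPDO 2, the lowest ductal-like count without library 2 and the lowest stromal-like and immune-like counts without library 1.

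PPDO and primary libraries share only a replicate number. The difference between library 1 and 2 correlated by -0.00605 across 9408 genes in PPDO and ductal-like cells. With a replicate block 13 members were higher and 8 lower in PPDO, and without the block of library between classes members higher went from 12 to 8 in immune-like, from 10 to 7 in stromal-like, from 14 to 13 in acinar-like and from 7 to 6 in ductal-like cells, with 16 in endocrine-like and 4 in endothelial-like cells as before. For 25 named values, 364 refits gave 0 reversals, with 12 calls lost and 10 gained. SLC7A8 passed with DESeq2 (1.42, adjusted p = 0.012), as did SLC38A2 (1.33, adjusted p = 0.032). Depth limits low members most in acinar-like and stromal-like cells of library 2, where 3 UMIs are 2.38 and 6.91 CPM.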

Other observations

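A cluster of 363 cells of primary pancreas 2 took no name, because 1 of the 18 markers on its best list, that of endocrine cells, passed where 3 were required. Its cells' median of 4038 UMIs was 0.167 times that of its library, and none of its leading genes, among them SPHKAP, RBPJL and SLC43A1, was a marker on that list. RBPJL was a marker on the acinar list. At resolution 1.0 the cells of library 2 without a name went from 363 to 244, and its acinar-like cells from 56 to 175. The cluster of 363 cells was in no comparison. SLC43A1 was at 373 CPM there, SLC7A11 at 168, SLC38A5 at 71.8, SLC7A1 at 69.5 and SLC1A5 at 53.4, against 185, 35.6, 79.2, 33.3 and 52.3 CPM in the acinar-like cells of the same library. The 12 acinar markers took 1.00% of its UMIs and 22.8% of those of the acinar-like cells, and INS took 16.1%. SLC38A4 was at 82.1 and SLC7A14 at 13.8 CPM in the cluster, between the endocrine-like levels of that library (375 and 67.0) and the estimates for free RNA (8.48 and 1.51). Whether these cells hold RNA of several kinds of cell was not tested.

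Among members under 10 CPM in every class, SLC6A3, the dopamine carrier, was at 23.2 CPM in the T and natural killer cluster of library 2, where immune-like cells held 12 of its UMIs in all, and at 2.29 CPM in that of library 1.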
